A study of Mus musculus with 5 samples.

Results

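The 39 genes described here encode amino acid transporters and were picked by symbol from the 24563 genes named on the arrays. The list was chosen with earlier results of these data known. By role they comprise 9 carriers of the proximal tubule's brush border, 8 of the basolateral membrane, 12 ubiquitous carriers and 10 that are best known from other cells. RNA of C57BL/6 mouse tissue was hybridised to 5 one-colour Agilent arrays, with 1 array in each group. The transplant groups were tissue recovered 2 weeks and 4 weeks after transplantation of a kidney bud, and the kidney groups were kidneys of E13.5 embryos, of newborns (P0) and of mice 8 weeks old. The sources used here do not say which cells made up the buds, where they were grafted or whether animals were pooled. All values describe single arrays without replicates, so no difference has a p-value.

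The proximal tubule recovers nearly all filtered amino acids in 2 steps. Carriers of the brush border, the microvillar membrane facing the lumen, take them up from the filtrate, most of them coupled to sodium. Basolateral carriers, many of them exchangers built from a light chain and a shared heavy chain, pass them on to the blood. Ubiquitous carriers feed growth in most cells, and several of them are induced when cells divide or lack amino acids. Inherited loss of brush border carriers causes the human disorders cystinuria (SLC3A1, SLC7A9) and Hartnup disease (SLC6A19), and loss of basolateral SLC7A7 causes lysinuric protein intolerance.

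Levels are given as scaled intensity, the processed fluorescence of a probe after the 75th percentile of its array was set to 1000. A level is comparable between arrays for 1 gene, but not between genes. The summed level of a marker list adds only its genes well above background on that array. The genes summed can therefore differ between arrays, and the brightest probes weigh most in a sum. Transplant levels are listed at 2 and then 4 weeks, and kidney levels at E13.5, P0 and then 8 weeks. Where a probe was not well above background, as judged by the scanner software, its level is only an upper bound. A fold change against such a level is then written "at least", with the dim side set no lower than the dimmest probe called well above background on that array. At least 4-fold apart is the threshold for every count. Between 60.9% and 69.1% of gene spots were well above background on each array. Slide 1 held the transplant of 2 weeks with the E13.5 kidney, and slide 2 held the 4-week transplant and the P0 and 8-week kidneys. Slide cannot be told apart from group in a pair that spans both. The P0 kidney had Xist but none of 4 Y-linked genes above background, and the 8-week kidney had Y-linked Ddx3y but no Xist above background. The transplants and the E13.5 kidney carried both, so sex and group cannot be told apart in comparisons with the older kidneys. For orientation, 7 proximal tubule markers (Lrp2, Cubn, Slc34a1, Slc5a2, Fbp1, Miox and Aqp1) were all above background in both transplants and in the P0 and 8-week kidneys. At E13.5, 5 of 7 were, all but Slc34a1 and Slc5a2. Detection of these markers does not tell the transplants and the older kidneys apart, so it cannot check those labels.

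Promoter sequence was at hand for 28 of the 39 genes, as RefSeq's 250 bases upstream of the transcription start on GRCm38.p6. Both strands were searched for 2 short motifs linked to tubule transcription factors, the HNF1 half-site GTTAAT and the HNF4-type element CAAAGTCCA. GTTAAT occurred in 7.49% of 27025 promoters. Among the transporters it lay in 1 of 6 brush border promoters (Slc6a20a), 3 of 7 basolateral ones (Slc7a7, Slc16a10 and Slc6a13), 1 of 8 ubiquitous ones (Slc36a1) and 0 of 7 of the remainder. CAAAGTCCA occurred in 0.451% of all promoters and, among the transporters, in that of Slc3a1 only. The promoters of 2 brush border pairs are shown because each pair is compared below, with a motif match in capitals. Slc3a1 and Slc7a9 encode the chains of 1 transporter and had similar courses. Slc6a20a and Slc6a20b are adjacent copies on chromosome 9 whose levels ran apart. Slc3a1 is read from chr17:85028097-85028346 (plus strand), Slc7a9 from chr7:35448842-35449091 (plus strand), Slc6a20a from chr9:123678833-123679082 (minus strand) and Slc6a20b from chr9:123632539-123632788 (minus strand).
Slc3a1: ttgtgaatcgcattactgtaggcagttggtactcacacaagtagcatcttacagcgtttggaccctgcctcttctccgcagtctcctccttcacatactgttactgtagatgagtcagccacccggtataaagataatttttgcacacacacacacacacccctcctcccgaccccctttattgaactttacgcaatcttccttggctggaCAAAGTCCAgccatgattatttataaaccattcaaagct
Slc7a9: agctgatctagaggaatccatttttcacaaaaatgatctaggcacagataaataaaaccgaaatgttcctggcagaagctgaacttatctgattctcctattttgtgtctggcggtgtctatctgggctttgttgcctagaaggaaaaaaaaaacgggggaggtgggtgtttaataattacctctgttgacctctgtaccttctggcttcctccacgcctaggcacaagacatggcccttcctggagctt
Slc6a20a: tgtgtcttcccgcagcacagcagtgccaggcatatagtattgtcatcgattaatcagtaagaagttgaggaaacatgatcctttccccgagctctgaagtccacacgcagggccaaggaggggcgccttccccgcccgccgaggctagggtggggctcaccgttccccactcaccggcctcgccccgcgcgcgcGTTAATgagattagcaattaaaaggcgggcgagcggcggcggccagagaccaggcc
Slc6a20b: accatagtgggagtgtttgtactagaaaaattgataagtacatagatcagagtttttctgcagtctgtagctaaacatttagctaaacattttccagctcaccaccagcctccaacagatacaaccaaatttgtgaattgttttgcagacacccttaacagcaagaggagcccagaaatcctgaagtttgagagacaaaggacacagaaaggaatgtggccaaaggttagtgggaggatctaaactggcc
A match is a run of letters and not a shown binding site, and most brush border promoters had neither motif.

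**Figure D1:**
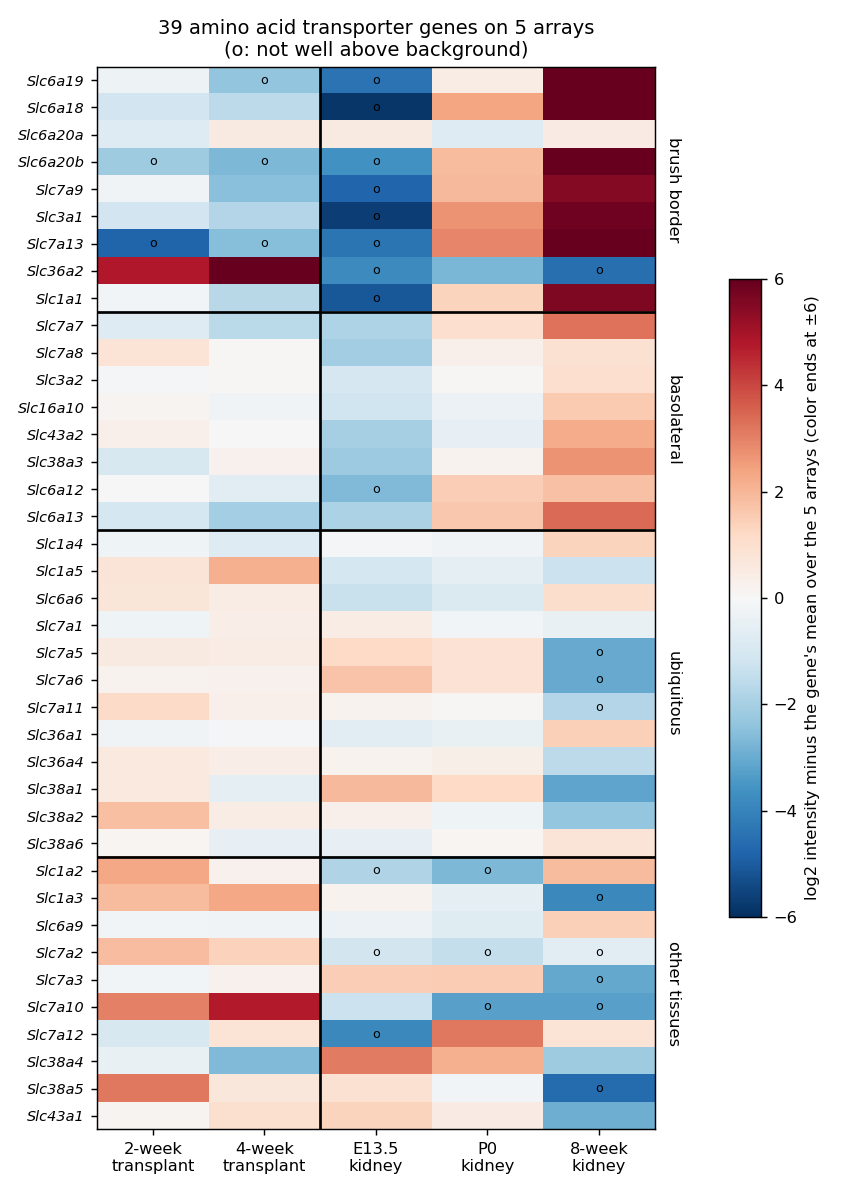
Each of the 39 transporter genes (rows, by role) on the 5 arrays (columns, transplants left of kidneys), coloured by its log2 intensity minus its own mean over the 5 arrays, with o where a level was not well above background. Brush border rows turn red in the 8-week kidney, where 7 of 9 had their highest level, while Slc36a2 and Slc7a10 turn red in the transplant columns.

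Brush border carriers were barely measurable in the E13.5 kidney, present at P0 and far higher at 8 weeks. Of the 9, 1 was well above background at E13.5 (Slc6a20a), 9 were at P0 and 8 were at 8 weeks. In the transplants 7 were at 2 weeks and 6 at 4 weeks, and of these 3 and 4 were at least 4-fold below the P0 kidney. Slc36a2 ran against this pattern and was by far higher in the transplants than in any kidney. The heavy and light chain of the cystine and basic amino acid exchanger, rBAT (Slc3a1) and b0,+AT (Slc7a9), show the common course. Slc3a1 had a scaled intensity of 231 in the 2-week and 150 in the 4-week transplant, against 10 at E13.5 (not above background), 3274 at P0 and 29321 at 8 weeks. Slc7a9 measured 488 and 101 in the transplants, against 21.4 (not above background), 2164 and 26328 in the kidneys by age. Both chains were thus higher in each transplant than at E13.5 and lower than at P0. Both also lay lower at 4 than at 2 weeks, with log2 differences of -2.27 for Slc7a9 and -0.62 for Slc3a1.

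The sodium-coupled neutral amino acid carriers Slc6a19 (B0AT1, the main apical carrier of neutral amino acids) and Slc6a18 (B0AT3) are neighbours on chromosome 13. Slc6a19 had 89.6 in the 2-week transplant and 21.3 in the 4-week transplant, the second not above background, against 5.15 (not above background), 149 and 10717 in the E13.5, P0 and 8-week kidneys. Slc6a18 had 95.5 and 70.9 in the transplants, against 3.71 (not above background), 1085 and 15678 in the kidneys. The steps after birth were 71.9-fold higher for Slc6a19 and 14.5-fold higher for Slc6a18. A second Slc6a18 probe moved the same way in each step. Collectrin (Cltrn), which carries B0AT1 to the membrane in kidney, is described with the other pathway genes.

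Slc1a1 (EAAC1) takes up glutamate and aspartate. Its level was 184 at 2 weeks and 64.2 at 4 weeks after transplantation, against 6.06 (not above background) in the E13.5, 517 in the P0 and 9829 in the 8-week kidney. Slc7a13 (AGT1), an aspartate and glutamate carrier of the straight proximal tubule that also pairs with rBAT, was not above background in either transplant (2.96 and 14) or at E13.5 (3.94). It had 621 at P0 and 36189.7 at 8 weeks, a step of 58.3-fold higher. Slc7a13 is known to be higher in male than in female mouse kidney, and the sex-linked genes above differ between these kidneys. Their part in the step was not tested.

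The imino acid carrier Slc6a20a (SIT1, proline uptake) and its neighbour Slc6a20b ran apart. Slc6a20b was not above background in the transplants (14.4 and 9.8) or at E13.5 (5.16), and had 237 at P0 and 6109.7 at 8 weeks. Slc6a20a had 262 and 649 in the transplants, against 663, 266 and 632 in the kidneys. Its levels stayed within a 4-fold range over the 5 arrays, with no steady course over kidney age. The 2 genes are close copies, and binding of each probe to the other gene's RNA was not tested.

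**Figure D2:**
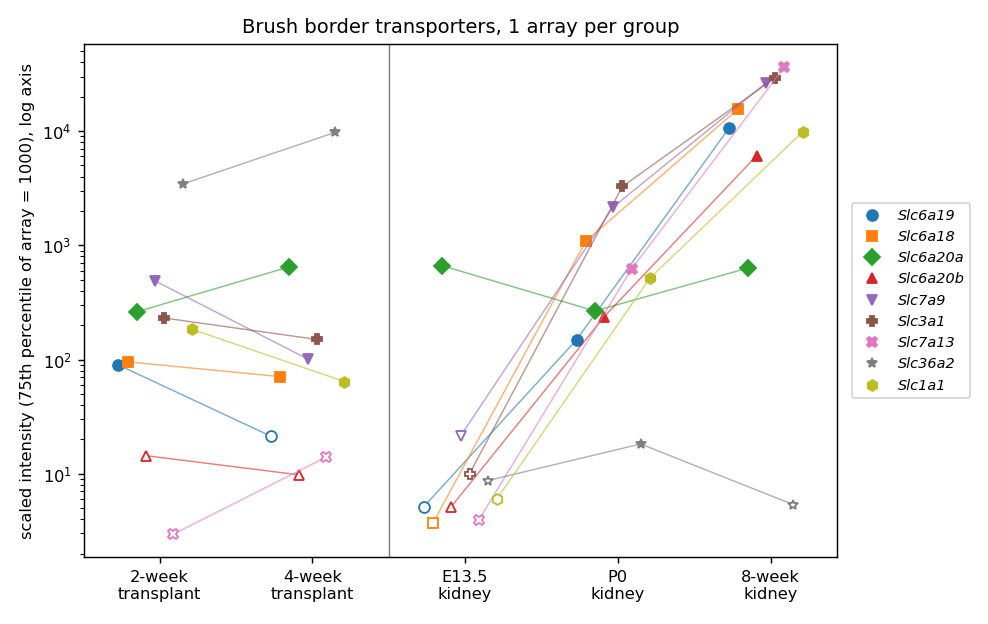
Scaled intensity (log axis) of the 9 brush border carriers on the 5 arrays, transplants left of kidneys, 1 point per array, open where the level was not well above background. For 7 genes the 8-week kidney is highest, Slc6a20a stays within 4-fold, and Slc36a2 reaches 3438 and 9764 in the transplants.

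Set as counts, 7 of 9 brush border carriers passed 4-fold upward and 0 downward at P0 against E13.5, and their median log2 difference was 4.94. Among all genes the shares were 6.24% upward and 1.83% downward, and the median was -0.12. The bounds ran from at least 8.88-fold higher for Slc6a19 to at least 195-fold higher for Slc3a1. At 8 weeks 7 of 9 were again at least 4-fold higher than at P0 and 0 lower, with a median of 3.85, against 8.93% higher and 9.35% lower among all genes. The 7 proximal tubule markers were all at least 4-fold higher in both steps (medians 6.91 and 3.64). In whole tissue, fewer tubule cells and less RNA per cell cannot be told apart. With normexp background correction the count at P0 against E13.5 was 2, and with only genes above background on both arrays it was 0, since that filter left Slc6a20a alone. Normexp also turned the split among all genes to 304 higher and 3207 lower, against 1096 and 322 without it. It put the mean background of the E13.5 array at -992, against 20.7 to 27.5 on the others. The negative control spots of that array averaged 70.2, against 64.5 to 71.9 elsewhere. Normexp correction with this estimate therefore cannot decide calls against E13.5.

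Brush border carriers measured above background in a transplant lay between the E13.5 and the P0 kidney there, other than Slc36a2 and Slc6a20a. Against E13.5, 6 of 7 compared carriers were at least 4-fold higher at 2 weeks (median log2 difference 3.46, within slide 1) and 4 of 6 at 4 weeks (median 2.16). None was lower. With normexp correction 1 carrier remained past 4-fold in each transplant, Slc36a2, and with its negative control form 4 remained at 2 weeks and 1 at 4 weeks. Quantile normalization left 2 at 4 weeks, and the filter for signal on both arrays left 0. All genes gave 11.3% higher and 5.42% lower at 2 weeks, and 12.7% higher and 6.87% lower at 4 weeks. Against P0, 5 of 9 were at least 4-fold lower at 2 weeks (median -2.15) and 7 of 9 at 4 weeks (median -3.91, within slide 2), while 3.38% and 4.36% of all genes were. Of these carriers 3 at 2 weeks and 4 at 4 weeks were above background on both arrays, and the others are bounds. In both cases 1 carrier was higher, Slc36a2, against 6.85% and 8.66% of all genes. The remaining carrier at 4 weeks, Slc6a20a, differed from P0 by 1.29 log2 units. Against the 8-week kidney, 7 of 9 were at least 4-fold lower in each transplant, with medians of -6.90 and -7.79. The shares of all genes at least 4-fold lower there were 8.67% and 7.8%, and 11.8% and 11.7% were higher. The summed level of the proximal tubule markers was 28049 in the 2-week and 30931 in the 4-week transplant, against 1200 at E13.5, 120188 at P0 and 1080470 at 8 weeks. Aqp1, which endothelium also expresses, made up most of the transplant sums, with 17584 at 2 weeks and 27651 at 4 weeks. Their part in the levels of the carriers was not tested. At 4 weeks 6 of 7 of these markers were at least 4-fold lower than at P0, and at 2 weeks 5 of 7.

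Slc36a2 (PAT2) is a proton-coupled carrier of glycine, proline and alanine, found in the brush border and also known as a surface marker of brown and beige fat cells. Its level was 3438 in the 2-week and 9764 in the 4-week transplant, against 8.72 (not above background), 18.2 and 5.36 (not above background) in the E13.5, P0 and 8-week kidneys. Slc36a2 was 189-fold higher at 2 weeks and 536-fold higher at 4 weeks than at P0. Both folds are rough, since its P0 level lay near the dimmest probe called well above background on that array, 15.5. Slc36a1 (PAT1), its neighbour on chromosome 11 and a carrier of lysosomes and the cell surface, had 213 and 234 in the transplants, against 156, 181 and 666 in the kidneys. The pair of neighbours therefore differed in course, and Slc36a1 was not 4-fold apart between a transplant and any kidney.

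Slc7a10 (Asc-1), a carrier of small neutral amino acids including serine, is known from brain and as a surface marker of white fat cells. It had 429 at 2 weeks and 1455 at 4 weeks after transplantation, against 22 at E13.5 and 5.62 and 5.65 at P0 and 8 weeks, both not above background. It was at least 27.7-fold higher at 2 weeks and at least 94.1-fold higher at 4 weeks than at P0. Slc36a2 and Slc7a10 were both higher at 4 than at 2 weeks, by 1.51 and 1.76 log2 units, which is under 4-fold. Fat cell markers differed between the same arrays. All 6 (Adipoq, Cfd, Plin1, Lep, Retn and Cidec) were above background in both transplants, with a summed level of 117034 at 2 weeks and 347373 at 4 weeks. Among the kidneys 1 was at E13.5, 2 were at P0 and 2 at 8 weeks, with sums of 112, 56.9 and 90.2. Adipoq, Cfd and Lep were above background in none of the kidneys. All 7 adrenal cortex markers were above background in the 4-week transplant and 4 were in the 2-week transplant, with sums of 207389 and 289. In the kidneys 5 were at E13.5, 4 at P0 and 3 at 8 weeks, with sums of 576, 381 and 328, each above the 2-week sum. The part of these markers in the levels of Slc36a2 and Slc7a10 was not tested.

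**Figure D3:**
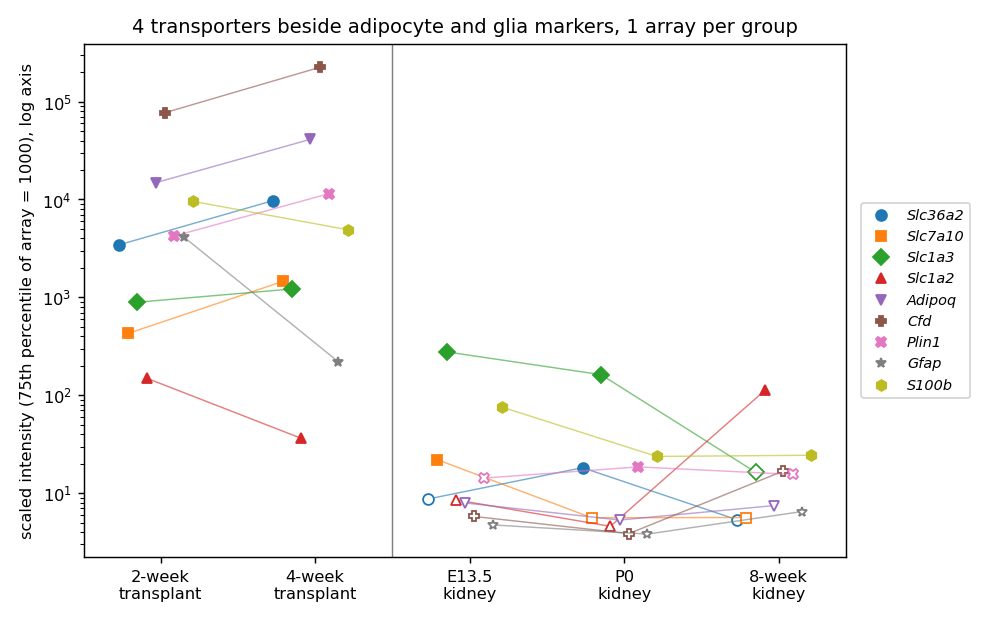
Scaled intensity (log axis) on the 5 arrays, 1 point per array, of 4 transporters beside 3 fat cell markers (Adipoq, Cfd, Plin1) and 2 glia markers (Gfap, S100b), open where the level was not well above background. Slc36a2, Slc7a10 and Slc1a3 lie higher in both transplants than in every kidney.

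Basolateral carriers were present in the E13.5 kidney already, and their median differences between the kidney ages were smaller than those of the brush border. All 8 were highest in the 8-week kidney, and 7 of 8 were above background at E13.5, all but Slc6a12. The P0 kidney held 5 of 8 at least 4-fold above E13.5 and 0 below, and their median log2 difference was 2.38. The shares of all genes past 4-fold were 6.24% upward and 1.83% downward. The 8-week kidney held 3 of 8 at least 4-fold above P0 and 0 below (median 1.86), and for all genes these shares were 8.93% and 9.35%. In the authors' table, which is not scaled to a percentile, 1 of 8 was. Over the whole span from E13.5 to 8 weeks 8 of 8 were at least 4-fold higher, where 14.1% of all genes were and 12.6% were lower. With normexp correction 2 of the 5 carriers at P0 stayed past 4-fold, and with its negative control form 3 did. For 8 weeks against E13.5 normexp gave 5 of 8.

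Slc7a7 (y+LAT1) is the light chain that exports basic amino acids, and its heavy chain is Slc3a2 (4F2hc, CD98). Slc7a7 had 3101 at 2 weeks and 1751 at 4 weeks after transplantation, against 1493, 10954 and 50944 in the E13.5, P0 and 8-week kidneys. Slc3a2 had 8400.3 and 9424 in the transplants, against 4531, 9503 and 18426 in the kidneys. The light chain of the pair ran with age, 7.34-fold higher at P0 than at E13.5 and 4.65-fold higher at 8 weeks than at P0. The heavy chain, which serves light chains in most cells, was higher by 1.07 and 0.96 log2 units in the same steps and differed from P0 by -0.18 and -0.01 in the transplants.

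Of the other light chain and uniporter genes, Slc7a8 (LAT2, neutral amino acids) had 1397 and 839 in the transplants, against 185 at E13.5, 979 at P0 and 1519 at 8 weeks. Slc43a2 (LAT4, export of branched-chain amino acids, phenylalanine and methionine) had 1708 and 1329 in the transplants, against 338, 957 and 6391 in the kidneys. Both genes lay near or above the P0 level in the transplants. Slc16a10 (TAT1, export of aromatic amino acids) ranged from 100.5 at E13.5 to 683 at 8 weeks and stood at 256 and 193 in the transplants. Its 3 probes were all higher at 8 weeks than on any other array.

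Slc38a3 (SNAT3) brings glutamine into the tubule for ammonia production. It had 164 and 382 in the transplants, against 71.5, 367 and 2065 in the kidneys. The taurine and GABA carrier Slc6a13 (GAT2) had 405 and 208 in the transplants, against 232, 2597 and 8897 in the kidneys. Its neighbour on chromosome 6, Slc6a12 (BGT1, uptake of the osmolyte betaine), had 44.9 and 27.9 in the transplants, against 6.97 (not above background), 123 and 147 in the kidneys. Slc6a13 and Slc6a12 were lower in both transplants than at P0, while Slc38a3 was not lower at 4 weeks. With normexp correction, whose E13.5 background estimate stood apart as given above, Slc38a3 lay below its E13.5 level at P0, by a log2 difference of -0.25.

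Against P0, 1 of 8 basolateral carriers was at least 4-fold lower at 2 weeks (Slc6a13, 6.41-fold lower) and 3 of 8 at 4 weeks (Slc7a7, Slc6a12 and Slc6a13), with medians of -0.67 and -0.12. None was at least 4-fold higher. Against the 8-week kidney 3 of 8 were at least 4-fold lower at 2 weeks and 5 of 8 at 4 weeks, with medians of -1.81 and -2.33. Among all genes 3.38% and 4.36% were lower than at P0, and 8.67% and 7.8% lower than at 8 weeks. Against E13.5, 2 of 8 were at least 4-fold higher in each transplant, where 11.3% and 12.7% of all genes were. Normexp correction left 0 in each, and its negative control form left 0 at 4 weeks. Macrophages also express Slc7a7, and 6 macrophage markers summed to 62510 and 39105 in the transplants, against 3765, 6526 and 14214 in the kidneys by age. Csf1r made up 12977 of the 8-week sum, and each of the other macrophage markers was lower at 8 weeks than at P0. The part of these markers in the transplant level of Slc7a7 was not tested.

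**Figure D4:**
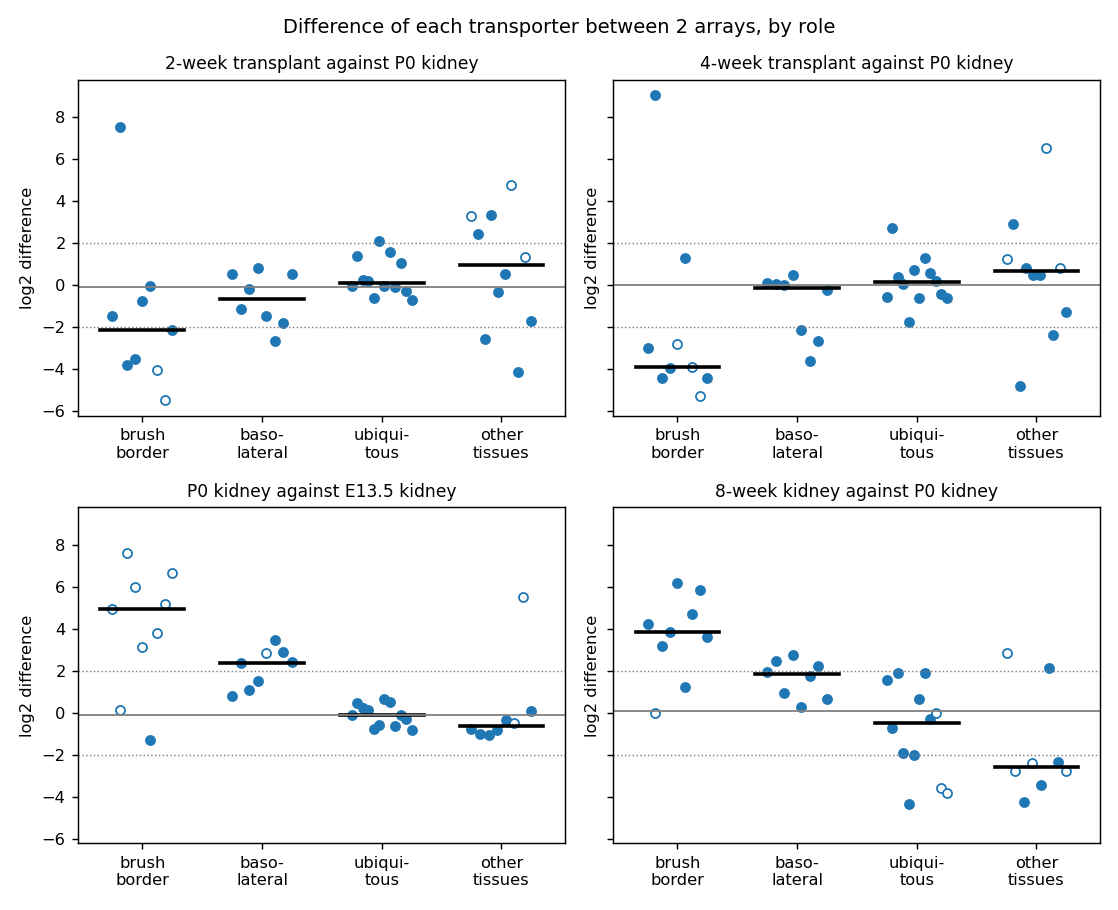
Log2 difference of each transporter between 2 arrays, by role, in 4 panels named by the arrays compared, where open points are bounds, black bars are the medians of a role, the grey line is the median of all genes and the dotted lines mark 4-fold. At P0 against E13.5 the medians are 4.94 for brush border, 2.38 for basolateral and -0.12 for ubiquitous carriers.

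Ubiquitous carriers did not share this course. All 12 were above background in both transplants and in the E13.5 and P0 kidneys, and 9 of 12 at 8 weeks. At P0 against E13.5, 0 of 12 were at least 4-fold higher or lower (median log2 difference -0.12). This is near the shares of all genes, 6.24% higher and 1.83% lower. At 8 weeks 4 of 12 were at least 4-fold lower than at P0 and 0 higher, with 9.35% lower and 8.93% higher among all genes. The 4 were Slc38a1, Slc38a2, Slc7a5 and Slc7a6. Slc7a5 rests on 1 of its 2 probes, the mean of both ends its call, and without it the count is 3. Normexp correction left 2. In the authors' table all genes shifted by -0.53 log2 units for this pair, with 1147 higher and 2967 lower calls, against 1577 and 1651 after scaling, and 6 of the 12 were past the threshold.

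The glutamine and alanine carriers Slc38a1 (SNAT1) and Slc38a2 (SNAT2) are neighbours on chromosome 15. Slc38a1 had 3316 at 2 weeks and 1476 at 4 weeks after transplantation, against 8557, 4996 and 248 in the kidneys by age. It was 20.1-fold lower at 8 weeks than at P0, and its 3 probes agree in direction for that step. Slc38a2, which cells raise when amino acids are short, had 18878 and 7281 in the transplants, against 6689, 4417 and 1078 in the kidneys. Its 2-week level was above that of every kidney, 4.27-fold higher than at P0.

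Slc7a5 (LAT1), the light chain that brings essential amino acids to dividing cells, had 238 and 221 in the transplants, against 365, 292 and 19.6 (not above background) in the kidneys. A second, dimmer Slc7a5 probe went the other way, with 60.6 and 92.3 in the transplants, against 51.9, 46.6 and 103 in the kidneys, so the direction of Slc7a5 is uncertain. Slc7a6 (y+LAT2) had 209 and 218 in the transplants, against 600.1, 338 and 22.3 (not above background) in the kidneys. The summed level of 5 proliferation markers was 5010 and 3290 in the transplants, against 46298, 20415 and 318 in the kidneys by age. Its part in these levels was not tested.

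Slc1a5 (ASCT2), a glutamine carrier of dividing cells, was highest in the transplants. It had 3206 at 2 weeks and 8176 at 4 weeks, against 889.9, 1240.5 and 759 in the kidneys. The 4-week level was 6.59-fold higher than at P0. A second probe gave 892 and 2357, against 228, 341 and 212, with the same order. Its homologue Slc1a4 (ASCT1, serine and alanine) was instead highest at 8 weeks, with 2345 and 1623 in the transplants, against 2603, 2400.1 and 7003 in the kidneys.

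The taurine carrier Slc6a6 had 8512 and 6895 in the transplants, against 2018, 2842 and 10668 in the kidneys, so the transplants lay nearer the 8-week kidney than the younger ones. Slc7a1 (CAT1, arginine and lysine) stayed between 2846 and 5306 on all arrays. Slc7a11 (xCT), the cystine and glutamate exchanger, was dim throughout, with 36.6 and 20.7 in the transplants, against 19.2, 17.7 and 4.94 (not above background) in the kidneys. Slc36a4 (PAT4, proline and tryptophan) had 382 and 344 in the transplants, against 304, 329 and 87.7 in the kidneys, and Slc38a6 ranged from 91.6 at E13.5 to 225 at 8 weeks. None of these 5 genes differed by 4-fold between a transplant and the P0 kidney.

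**Figure D5:**
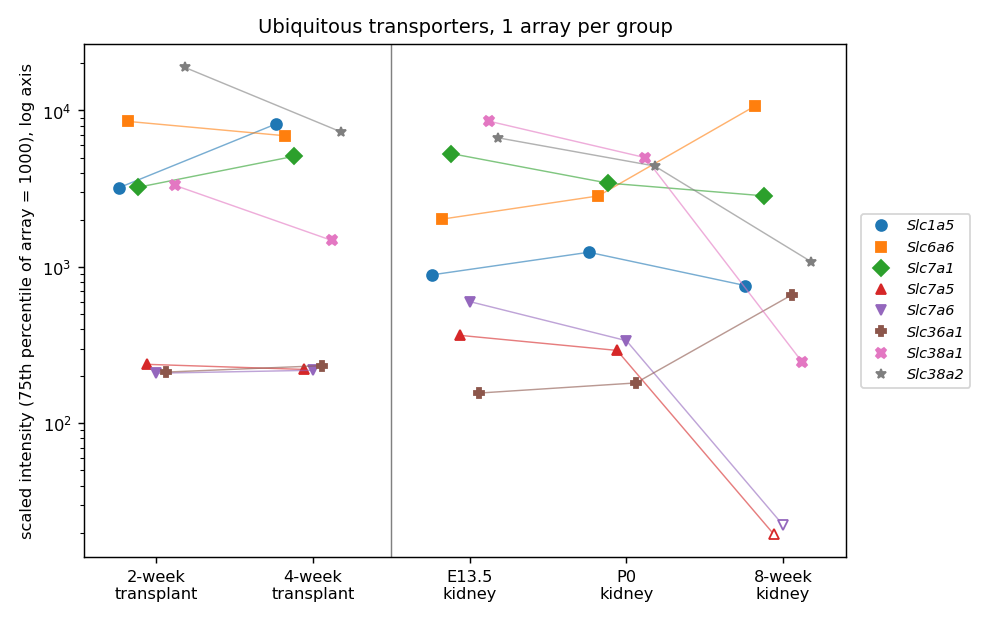
Scaled intensity (log axis) of 8 of the 12 ubiquitous carriers on the 5 arrays, transplants left of kidneys, 1 point per array, open where the level was not well above background. Slc1a5 is highest in the transplants, while Slc38a1, Slc38a2 and Slc7a6 are lowest at 8 weeks, as is the plotted probe of Slc7a5, whose second probe goes the other way.

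Against P0, 1 of 12 ubiquitous carriers was at least 4-fold higher in each transplant, Slc38a2 at 2 weeks and Slc1a5 at 4 weeks, and 0 were lower. The medians were 0.09 and 0.14, and 1 of 12 is near the 6.85% and 8.66% of all genes given above. Against the 8-week kidney 6 of 12 were at least 4-fold higher at 2 weeks and 5 of 12 at 4 weeks, with 1 lower at 4 weeks (Slc1a4, 4.31-fold lower), where 11.8% and 11.7% of all genes were higher. These include Slc7a5, whose call ends with the mean of its probes. Both normexp corrections left 3 higher in each transplant, and quantile normalization and the authors' table ended the call of Slc1a4. The median log2 differences were 1.34 and 1.41.

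The 10 carriers best known from other cells were mixed. All 10 were above background in both transplants, while 7 were at E13.5, 7 at P0 and 5 at 8 weeks. Against P0, 4 were at least 4-fold higher and 2 lower at 2 weeks, and 2 were higher and 2 lower at 4 weeks. The shares of all genes were 6.85% higher and 3.38% lower at 2 weeks, and 8.66% and 4.36% at 4 weeks. With signal required on both arrays 2 were higher at 2 weeks and 1 at 4 weeks. At 8 weeks 6 of 8 compared were at least 4-fold lower than at P0 and 2 higher, the 2 being Slc1a2 and Slc6a9, where 9.35% of all genes were lower and 8.93% higher. Normexp correction left 2 lower and its negative control form 3, each with 1 higher (Slc6a9). Slc6a9 fell below 4-fold under quantile normalization and in the authors' table, and Slc1a2 did with the mean over probes.

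The glutamate carriers of glia, Slc1a2 (GLT1) and Slc1a3 (GLAST), differed in course. Slc1a3 had 893 and 1219 in the transplants, against 278, 162 and 16.4 (not above background) in the kidneys, so the transplants lay above every kidney. Slc1a2 had 149.6 and 36.4 in the transplants, against 8.56 and 4.59 (both not above background) and 112 in the kidneys. Its other probes were above background in the 2-week transplant only. All 6 glia markers were above background in the transplants (summed level 28028 and 41632), and 4 of 6 were in each kidney (sums 8905, 4881 and 11185), with Gfap and Olig1 below. Their part in the levels of Slc1a2 and Slc1a3 was not tested.

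Slc38a5 (SNAT5, glutamine and serine) peaked at 2 weeks, with 1288 at 2 weeks and 224 at 4 weeks, against 267, 127 and 5.81 (not above background) in the kidneys. It was 10.1-fold higher at 2 weeks than at P0 and 5.76-fold lower at 4 than at 2 weeks. The imprinted gene Slc38a4 (SNAT4), known from placenta and liver, had 214 and 46.5 in the transplants, against 2558, 1289 and 66.6 in the kidneys. It was 6.01-fold lower at 2 weeks and 27.7-fold lower at 4 weeks than at P0, and 19.3-fold lower at 8 weeks. Slc38a4 lies next to Slc38a2 on chromosome 15, which was higher than P0 in both transplants. Slc43a1 (LAT3, branched-chain amino acids) had 353 and 613 in the transplants, against 791, 443 and 41.1 in the kidneys.

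Slc7a12 (Asc-2) is a kidney carrier that is higher in female mice. Its level was 43.9 and 147 in the transplants, against 5.78 (not above background), 764 and 149 in the kidneys. P0 was the highest array, and the P0 kidney was the one with Xist and no Y-linked gene above background. The part of sex in the 5.11-fold lower level of Slc7a12 at 8 weeks was not tested. The glycine carrier Slc6a9 (GlyT1) had 3394 and 3284 in the transplants, against 2925, 2326 and 10274 in the kidneys, and both its probes were highest at 8 weeks. The cationic amino acid carriers differed. Slc7a2 (CAT2) was above background in the transplants only (39 and 27.5), and Slc7a3 (CAT3) had 50 and 67.6 in the transplants, against 155, 165 and 6.7 (not above background) in the kidneys.

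Between the transplants, every transporter past 4-fold was lower at 4 weeks. Of 37 compared, none was up by 4-fold or more at 4 weeks against 2 weeks and 5 were down, against 2.44% and 1.02% of all genes. The 5 were Slc7a9 (4.83-fold lower), Slc6a19 (at least 4.21-fold lower), Slc1a2, Slc38a4 and Slc38a5. By role, 2 of 7 brush border, 0 of 8 basolateral, 0 of 12 ubiquitous and 3 of 10 other carriers were at least 4-fold lower. With either normexp correction only Slc38a5 remained past the threshold, and the transplants lay on different slides. Of the 7 proximal tubule markers 3 were also at least 4-fold lower at 4 than at 2 weeks (Slc34a1, Slc5a2 and Miox) and 0 higher, with a median log2 difference of -1.12. Their part in the lower Slc7a9 and Slc6a19 was not tested.

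Genes that work with these carriers were grouped by function. Of 9 partners and brush border enzymes that free or take up amino acids and peptides, 6 of 8 compared were at least 4-fold higher at P0 than at E13.5 and 4 of 8 at 8 weeks than at P0, with 0 lower. Among all genes 6.24% and 8.93% were higher. The peptide carrier Slc15a1 was not above background on any array. Cltrn (collectrin), the renal partner of B0AT1, had 3739.8 and 1010.4 in the transplants, against 132, 18838 and 161463 in the kidneys. Cltrn was thus higher at each later kidney age, and in both transplants it lay between the E13.5 and P0 kidneys. Ggt1, which splits glutathione at the brush border, had 179.8 and 123 in the transplants, against 50.9, 3887 and 35770.5 in the kidneys. Against P0, 3 of 8 partners were at least 4-fold lower in each transplant and 0 higher, with 3.38% and 4.36% of all genes lower.

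Of 10 amino acid enzymes of the tubule, 4 were at least 4-fold higher at P0 than at E13.5 and 9 at 8 weeks than at P0, with 0 lower, where 6.24% and 8.93% of all genes were higher. Against the 8-week kidney 9 of 10 were at least 4-fold lower in each transplant, where 8.67% and 7.8% of all genes were. Dao, which oxidises D-amino acids, had 1437 and 427 in the transplants, against 30.9, 10289 and 97108 in the kidneys. Ass1, which makes the precursor of arginine, had 2786 and 1413 in the transplants, against 324, 23343 and 169747 in the kidneys. Glul (glutamine synthetase) was the exception, with 9033 and 17560 in the transplants, against 3366, 3976 and 14028 in the kidneys, and was 4.42-fold higher in the 4-week transplant than at P0.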

How the data were processed

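Total RNA of 5 C57BL/6 samples was labelled with Cy3 and hybridised to 1 array each, per the labels' protocols. The spot intensity in the deposited files comes from Agilent Feature Extraction, version 10.7.3.1 in the submitters' processing notes, with background subtraction and detrending, per the file headers. Their flags for signal well above background and for outliers were used as deposited. The authors' deposited gene table holds log2 values. Over 30170 of its rows, 99.71% of values were within 0.01 of log2 of the unshifted mean intensity of a gene's probes less the row's median, and 18.2% after a 75th percentile shift. Its column medians were 0.05 at E13.5, -0.08 in the 4-week transplant and 0 on the other arrays.

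From the scanner files, processed intensities were divided by the 75th percentile of the array's spots other than controls and put on the log2 scale (Python 3.11.15, pandas 2.3.3). The percentiles were 1713 and 1504 for the 2-week and 4-week transplants, and 1619.7, 1720.1 and 1170.2 for the E13.5, P0 and 8-week kidneys. Outlier spots were dropped and replicate spots averaged, and a gene was represented by its probe of highest mean level. The 39 members matched 51 probes, and 9 members had several. Of 39414 probes 33826 were named, through gene identifiers and RefSeq names where possible. Genes not above background on either array of a pair were left out, a gene above it on 1 array entered as a bound, and a bound that turned the direction entered as 0.

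The SD between replicate spots on an array had a median between 0.05 and 0.06 log2 units and reflects spot error only, and the number of arrays limits the precision. All 10 pairs of arrays were compared without a test. The 39 members are all named, in the order of their roles, and other genes as examples from lists of partners, enzymes, amino acid response genes, further transporters and cell type markers. Members and lists were chosen with earlier results of these data known. Alternatives were 2 normexp corrections and quantile normalization (limma 3.58.1 in R 4.3.3), the authors' table, the mean over probes, other background filters, and 2-fold and 8-fold thresholds. In data simulated for the 4-week transplant against the P0 kidney (17803 genes, 50 changed per size and direction), 100% of 8-fold and 0% of 3-fold changes passed 4-fold, which checks the computation and not the error of real arrays.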

Additional observations from a re-analysis of the deposited data

How the results depend on the processing

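For the brush border, basolateral and ubiquitous roles in 5 comparisons (each kidney step after E13.5, each transplant against P0, and between the transplants), the counts that moved by over 1.5 times under another setting are given first. At a 2-fold threshold the basolateral count was 5 in place of 3 for the 8-week against the P0 kidney, 4 in place of 1 for the 2-week transplant against P0, and 1 in place of 0 for the 4-week against the 2-week transplant. The ubiquitous count was then 8 in place of 4 (8 weeks against P0), 4 in place of 1 (2-week transplant against P0), 3 in place of 1 (4-week transplant against P0) and 3 in place of 0 between the transplants, and the brush border count between the transplants was 5 in place of 2. At 8-fold the basolateral count was 1 in place of 5 (P0 against E13.5), 0 in place of 3 (8 weeks against P0), 0 in place of 1 (2-week transplant against P0) and 1 in place of 3 (4-week transplant against P0). The ubiquitous count was 0 in place of 1 for each transplant against P0, and the brush border count between the transplants was 0.

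For the E13.5 array, whose negative control spots averaged 70.2 against 64.5 to 71.9 elsewhere, normexp correction estimated the mean background at -992. The estimates were 20.7 to 27.5 on the others, so the correction cannot decide calls against E13.5. It gave 2 brush border, 2 basolateral and 1 ubiquitous carrier for P0 against E13.5, in place of 7, 5 and 0, with 304 higher and 3207 lower among all genes, in place of 1096 and 322. It gave 2 ubiquitous carriers for 8 weeks against P0, in place of 4, and 0 brush border carriers between the transplants. Slc38a3 then lay lower than at E13.5, by a log2 difference of -0.25 at P0 and -0.23 in the 4-week transplant. Normexp with the 153 negative control spots gave 3 basolateral carriers for P0 against E13.5 and 0 brush border carriers between the transplants. Requiring signal above background on both arrays gave brush border counts of 0 (P0 against E13.5), 5 (4-week transplant against P0) and 1 (between the transplants), and 2 ubiquitous carriers for 8 weeks against P0. That filter leaves Slc6a20a as the brush border carrier compared with E13.5, so the medians there became -1.32 (P0), -0.069 (8 weeks), -1.34 (2-week transplant) and -0.031 (4-week transplant). The authors' table gave 1 basolateral carrier for 8 weeks against P0. Over the 10 pairs, 157 of 167 calls of single members were kept in the authors' table, 158 under quantile normalization, 156 with the mean over probes, 135 with negative control normexp and 111 with normexp. With the filter for signal on both arrays 99 were kept and 68 were not compared. Several counts for other pairs and roles, which also moved, are given beside their results. Against E13.5, normexp left 3 of 6 partners higher at P0, 2 of 4 at 2 weeks and 0 of 4 at 4 weeks, and 1 of 4 and 1 of 3 tubule enzymes higher at 2 and 4 weeks. For transporters outside the 39 genes and amino acid response genes, with counts of 0 to 3, some counts moved by 1 to 3 calls.

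In the authors' table the median of all genes moved by 0.50 and 0.36 log2 units for the 2-week and 4-week transplant against the 8-week kidney, by -0.50 for 8 weeks against E13.5, and by -0.19 for the 4-week transplant against P0 and against the 2-week transplant. The splits between higher and lower calls were 3622 and 1211 in place of 2165 and 1589 (2-week transplant against 8 weeks), 3360 and 1212 in place of 2150 and 1428 (4-week transplant against 8 weeks), 2173 and 3598 in place of 2483 and 2231 (8 weeks against E13.5) and 542 and 367 in place of 451 and 189 (between the transplants). Normexp gave 606 and 3305 in place of 2070 and 989 (2-week transplant against E13.5), 748 and 3312 in place of 2335 and 1259 (4-week transplant against E13.5) and 1437 and 3944 in place of 2483 and 2231 (8 weeks against E13.5). With no filter the median moved by 0.38 for 8 weeks against P0. No paired analysis was possible because each group has 1 array, and slide could not be fitted as a block for the same reason. Levels below background are limits only.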

Other observations

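Genes of the amino acid response and of serine synthesis, which cells raise when amino acids run short, were compared as a list of 10, all above background on every array. Against P0, 0 were at least 4-fold higher and 1 was lower in each transplant, Phgdh, where 3.38% and 4.36% of all genes were lower. Phgdh, the first enzyme of serine synthesis, had 4167 and 4283 in the transplants, against 17926, 18644 and 2664 in the E13.5, P0 and 8-week kidneys. Asparagine synthetase (Asns) had 2709 and 6487 in the transplants, against 4789, 1768 and 700.1 in the kidneys. Trib3, a target of Atf4, had 827 and 1817 in the transplants, against 714, 460.4 and 195 in the kidneys. Chac1, which breaks down glutathione, had 169 and 1181 in the transplants, against 145, 403 and 168 in the kidneys, and at 4 weeks was 7-fold higher than at 2 weeks. Against the 8-week kidney 3 of the 10 were at least 4-fold higher in the 4-week transplant, namely Asns, Trib3 and Chac1, and 1 was at 2 weeks, Trib3, where 11.7% and 11.8% of all genes were higher. The serine enzyme Shmt2 was at least 4-fold lower there in both transplants, with 759.5 and 912 in the transplants, against 11337 at 8 weeks.

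Of 16 further amino acid transporters and lysosomal carriers, 12 were compared at P0 against E13.5, where 1 (Slc7a4) was at least 4-fold higher and 0 lower, near the 6.24% and 1.83% of all genes. Slc6a14, a broad carrier of neutral and basic amino acids known from lung and gut, was above background in the 2-week transplant only, with 85.3. Slc7a14 was above background in the 4-week transplant only, with 43.7. The lysosomal cystine carrier Ctns stayed between 912 at P0 and 1716 at 8 weeks, with 1430.3 and 1118 in the transplants.

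The marker lists not described with a transporter had these summed levels. For 5 neuron markers the sums were 6806 and 11515 in the transplants, against 5900, 4269 and 3956 in the kidneys. For 5 liver markers they were 1774 and 233806 in the transplants, against 139.9, 1236 and 2855 in the kidneys, and Ttr, which choroid plexus also makes, had 232894 of the 4-week sum while Alb, Apoa1 and Apob were not above background in either transplant. For 5 erythroid markers they were 23212 and 20889 in the transplants, against 28147, 26344 and 72261 in the kidneys, and for 5 skeletal muscle markers 1374 and 1699 in the transplants, against 2630.1, 1039 and 102 in the kidneys.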
